A study of Mus musculus with 2 samples.

Results

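Astrocyte nuclei from mouse brain were picked out of 2 single-nucleus chromatin accessibility (scATAC-seq) libraries by the accessibility of 10 astrocyte marker loci, and their open chromatin was compared between sham surgery and stroke. Of 10329 nuclei kept in all, 887 were gated as astrocytes: 400 of 5949 from the sham library and 487 of 4380 from the stroke library. A nucleus entered the kept set when the authors' software had called it a cell, it held 1000 to 100000 fragments in peaks, and over 20% of its fragments lay in peaks. Its fragments over the bodies plus 2 kb upstream of Aqp4, Slc1a3, Slc1a2, Gjb6, Aldh1l1, Gja1, Sox9, Slc39a12, Ntsr2 and Acsbg1 were counted, and it was gated when that count was at least 5 and exceeded the number expected from its depth by at least 3 times the square root of the expected number. The excess divided by that square root is called the gate score below.

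All mice were wild-type C57BL/6J males. The stroke library was made from the hemispheres on the injured (ipsilateral) side, taken 48 h after the middle cerebral artery had been blocked for a time and reopened (MCAO/R), and the sham library from brains of mice in which the filament was inserted without sustained occlusion. Material from 4 brains was pooled per condition before nuclei were extracted, and each pool gave 1 library. Differences between sham and stroke therefore had no replicate check, no test was run, and every interval given is a 95% exact interval that covers counting error only. Sham brains, for which no side is named, were set against stroke hemispheres of the injured side, and olfactory bulbs and cerebellum had been left out of the tissue, so surgery outcome and sampled tissue cannot be told apart.

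Astrocytes are the glial cells that take up glutamate and potassium from around synapses, contact blood vessels through water-channel-rich endfeet, and supply neurons with lactate and glutamine. After injury they become reactive: they enlarge, build intermediate filaments such as Gfap and vimentin, and switch on secreted acute-phase and cytokine-response genes. AP-1 (dimers of Fos and Jun proteins) and STAT3 are transcription factors that injury signals activate, while NFI proteins and SOX9 belong to the factors that set astrocyte identity during development.

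The sequences below come from single regions outside promoters. Those on chromosomes 13 and 17 are 2 of the 15 regions ranked highest in stroke by interval bound. The Bcl3 window is the best ranked one of that gene. The Plcb1 and Slc9a9 windows ranked lowest among regions outside the marker loci that were at least 4-fold above other nuclei in sham. Each is a 300 bp window centred on the median transposase cut site of a 500 bp region, read from RefSeq's GRCm38.p6 assembly, the same build as mm10, on the forward strand. Capitals mark AP-1 letters (TGANTCA), STAT letters (TTCNNNGAA) and the half-site letters of NFI (TTGGCA), searched on both strands.
chr13:53662955-53663254 (higher in stroke, between genes): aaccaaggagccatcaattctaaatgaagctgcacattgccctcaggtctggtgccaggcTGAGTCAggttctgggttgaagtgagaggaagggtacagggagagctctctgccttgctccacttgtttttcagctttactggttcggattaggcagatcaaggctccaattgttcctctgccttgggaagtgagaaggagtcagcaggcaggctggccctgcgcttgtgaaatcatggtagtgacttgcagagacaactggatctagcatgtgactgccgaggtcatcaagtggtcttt
chr17:66750637-66750936 (higher in stroke, in Ptprm): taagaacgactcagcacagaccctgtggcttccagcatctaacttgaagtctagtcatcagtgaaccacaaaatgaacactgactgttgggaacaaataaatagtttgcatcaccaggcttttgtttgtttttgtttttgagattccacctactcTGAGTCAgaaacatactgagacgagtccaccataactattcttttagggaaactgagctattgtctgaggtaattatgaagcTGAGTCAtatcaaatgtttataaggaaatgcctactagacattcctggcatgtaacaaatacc
chr7:19816239-19816538 (higher in stroke, in Bcl3): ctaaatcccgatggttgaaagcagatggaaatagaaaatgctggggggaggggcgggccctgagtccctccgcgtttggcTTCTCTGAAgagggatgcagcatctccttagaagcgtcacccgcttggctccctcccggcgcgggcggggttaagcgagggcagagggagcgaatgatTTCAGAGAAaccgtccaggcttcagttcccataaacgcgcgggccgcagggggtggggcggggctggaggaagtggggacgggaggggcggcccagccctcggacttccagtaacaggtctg
chr2:134961747-134962046 (lower in stroke, in Plcb1): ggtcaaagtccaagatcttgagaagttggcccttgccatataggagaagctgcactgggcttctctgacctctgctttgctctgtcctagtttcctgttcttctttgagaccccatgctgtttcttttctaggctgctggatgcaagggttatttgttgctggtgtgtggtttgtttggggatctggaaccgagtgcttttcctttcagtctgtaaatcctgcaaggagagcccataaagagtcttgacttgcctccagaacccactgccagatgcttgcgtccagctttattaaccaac
chr9:94743276-94743575 (lower in stroke, in Slc9a9): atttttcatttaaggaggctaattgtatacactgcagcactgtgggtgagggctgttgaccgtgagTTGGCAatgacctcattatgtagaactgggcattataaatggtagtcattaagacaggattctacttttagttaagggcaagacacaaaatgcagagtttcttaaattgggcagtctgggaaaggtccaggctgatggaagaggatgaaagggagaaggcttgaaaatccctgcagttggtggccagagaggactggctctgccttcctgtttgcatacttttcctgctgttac
Windows on chromosomes 13 and 17 hold AP-1 letters, the Bcl3 window holds STAT letters at 2 places and the Plcb1 window holds none of these letters. NFI half-site letters stand in the Slc9a9 window. Values for these regions follow the account of the genes.

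The gate took 6.72% of kept sham nuclei (95% interval 6.10 to 7.39) and 11.1% of kept stroke nuclei (10.2 to 12.1), a share 1.65 times as high in stroke. That difference rested on the nucleus filters, which kept 5949 of 6979 called sham barcodes (85.2%) and 4380 of 8740 called stroke barcodes (50.1%). With the gate applied to all called barcodes, 6.29% (5.73 to 6.89) of sham and 6.37% (5.87 to 6.91) of stroke barcodes passed, and the kept gated nuclei were 5.73% and 5.57% of called barcodes. The share therefore describes the gate and the filters and is not a measure of astrocyte number. The gated share across the depth quartiles of the nuclei lay between 6.05% and 7.26% in sham, and between 9% and 13.1% in stroke, where the deeper quartiles gave the lower values. Gated nuclei held 4941223 fragments in sham and 5319887 in stroke, with medians of 11236 and 9877 fragments per nucleus. Levels below are fragments over a gene's body plus 2 kb upstream per 1000000 fragments of the same set of nuclei (CPM), and they are compared between conditions within a gene, not between genes.

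The median gated nucleus held 15 marker fragments from 4 of the 10 markers in sham, and 14 fragments from 5 markers in stroke. The threshold cut through a continuous range. The nucleus closest to it on the inside held 5 marker fragments where 1.42 were expected (score 3.008), and the closest on the outside held 11 where 4.58 were expected (score 2.998). In sham 78 nuclei scored 2.5 to 3 and 71 scored 3 to 3.5, and in stroke these numbers were 86 and 75. A further 16 sham and 10 stroke nuclei passed the score but held under 5 marker fragments.

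The marker loci chose the nuclei, so their levels are a description only. Slc1a2 (Glt1) and Slc1a3 (Glast) encode the glutamate transporters of astrocytes, and Aldh1l1 a folate enzyme widely used to mark them. Slc1a2 and Aldh1l1, which span long genes, supplied 40% and 25.7% of the marker fragments in gated sham nuclei and 35.1% and 27.0% in gated stroke nuclei. Slc1a3 stood at 102 CPM (93.3 to 111) in sham and 170 CPM (159 to 181) in stroke. Aqp4, the water channel of endfeet, stood at 37.6 CPM (32.4 to 43.5) and 53.8 CPM (47.7 to 60.4). Acsbg1, a fatty acid activating enzyme, stood at 133 CPM (123 to 144) and 103 CPM (94.6 to 112). When each marker was measured in nuclei picked by the other 9 markers, all 10 stayed above the remaining nuclei, by 1.88-fold to 7.62-fold in sham and by 1.94-fold to 5.16-fold in stroke. Under that choice stroke over sham was 1.52 for Slc1a3 (1.34 to 1.72), 1.38 for Aqp4 (1.12 to 1.70) and 0.993 for Slc1a2 (0.924 to 1.07). Slc1a3 and Aqp4 also went from 16.4 to 28.8 CPM and from 4.44 to 7.42 CPM in the nuclei outside the gate, and in nuclei that passed a second astrocyte list as well, described below, Aqp4 was 1.23-fold higher with an interval from 0.997 to 1.52. Acsbg1 changed sides, from 0.774 (0.689 to 0.868) in the gated nuclei to 1.18 (1.01 to 1.38) in nuclei picked by the other 9.

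The label was checked with 30 further astrocyte genes that the gate had not used. Summed, they stood at 1985 CPM in gated against 836 CPM in other sham nuclei, 2.37-fold higher (2.32 to 2.43), and at 2220 against 863 CPM in stroke, 2.57-fold higher (2.52 to 2.63). All 30 were above the other nuclei in both libraries. Examples in sham are Fgfr3, a receptor for fibroblast growth factors (65.2 against 13.8 CPM), Tril, a Toll-like receptor accessory protein (34.2 against 5.28 CPM), and Slc7a10, the astrocyte D-serine transporter (57.1 against 13.7 CPM). The gate did not give a pure set, however. The same rule applied to these 30 genes was met by 210 gated sham nuclei (52.5%) and 318 gated stroke nuclei (65.3%), against 266 (4.79%) and 218 (5.60%) of the nuclei outside the gate.

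Markers of other cell types stayed measurable in the gated nuclei, and no gene of these lists was at 0 in both libraries. S100a9, a calgranulin of granulocytes, held 0 fragments in gated sham and 4 in gated stroke nuclei. The median share of fragments in peaks was 45.9% in gated and 38.9% in other sham nuclei, and 47.5% and 33.0% in stroke. A ratio of 1 to the other nuclei need therefore not be a neutral level in either library. Summed glutamatergic neuron genes were below the other nuclei in both libraries, at 0.744 of their level in sham and 0.596 in stroke. The oligodendrocyte list stood at 0.772 and 0.773, the GABAergic list at 0.657 and 0.724, and the microglia and macrophage list at 0.984 and 0.940. In that last list Cx3cr1 alone held 982 of 1911 fragments in sham and 1203 of 2221 in stroke. Cx3cr1 stood at 1.08 and 1.19 times the other nuclei. Of the 14 genes of that list, 1 was above the other nuclei in both libraries. Endothelial and choroid plexus lists lay within 1.01-fold of the other nuclei in both libraries. Mural and leptomeningeal cell genes were 1.57-fold higher in gated nuclei of both libraries, at 151 against 96.1 CPM in sham and 178 against 113 CPM in stroke. Between the gated sets the 5 of these genes with enough fragments to compare had a median log2 ratio of stroke over sham of 0.81, and 3 had intervals above 1. Genes of other cell classes at least 2-fold higher in gated stroke nuclei were Rgs5 of pericytes (2.04-fold), Cldn11 of oligodendrocytes (2.94-fold), Rarres2 of the ependymal list (2.15-fold) and Folr1 of the choroid plexus list (3.10-fold), and their part in the gains below was not tested. Ependymal genes stood at 133 CPM in gated sham and 171 CPM in gated stroke nuclei, 1.06-fold and 1.22-fold above the other nuclei, which is 1.28-fold higher in stroke (1.16 to 1.42) against 1.12-fold in the other nuclei, and their part in the differences below was not tested. The rule was also met for at least 1 other cell class by 127 gated sham nuclei (31.8%) and 124 gated stroke nuclei (25.5%), which were not removed. Outside the gate 38.0% of sham and 38.9% of stroke nuclei met it for at least 1 of these classes.

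**Figure D1:**
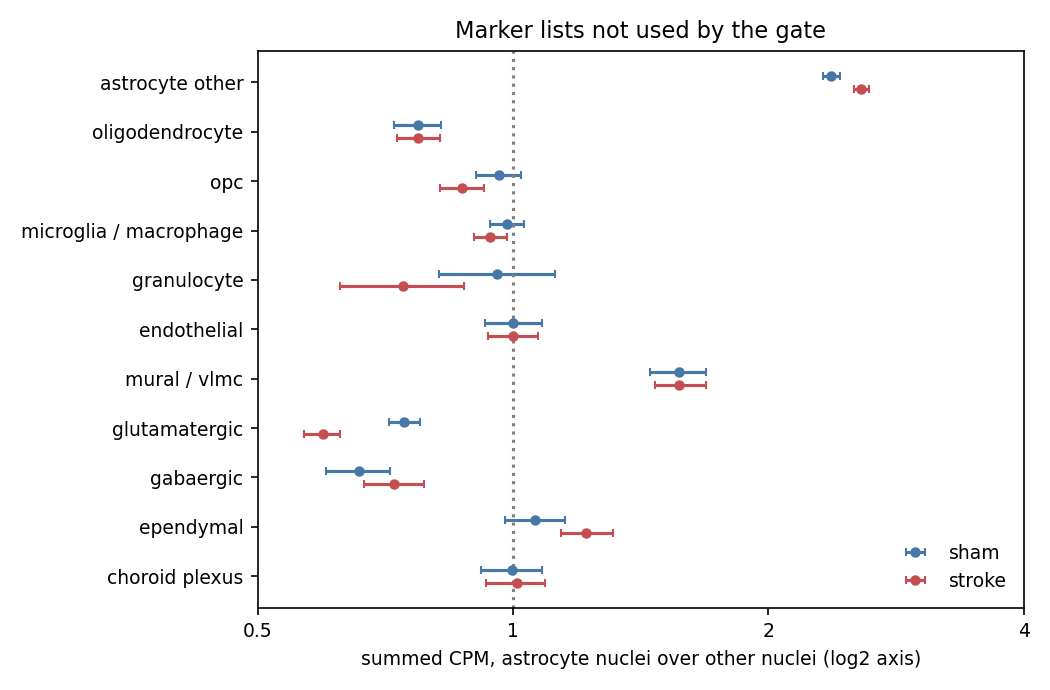
Summed accessibility of marker lists that the gate did not use, in gated astrocyte nuclei divided by that in other kept nuclei (log2 axis), for the sham and stroke libraries with 95% counting intervals. The 30 further astrocyte genes stand at 2.37 and 2.57, mural and leptomeningeal genes at 1.57, and neuronal lists below 1.

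The gated sets did not hold the same amount of glutamatergic neuron signal. The 10 glutamatergic genes summed to 463 CPM in gated sham nuclei and 330 CPM in gated stroke nuclei, a ratio of 0.712 (0.669 to 0.758), against 0.889 in the other nuclei. GABAergic genes summed to 111 and 120 CPM, a ratio of 1.08 with an interval that included 1 (0.961 to 1.21). Just above the threshold, at scores 3 to 4, glutamatergic genes stood at 612 CPM (574 to 652) in sham and 374 CPM (346 to 404) in stroke. At scores 4 to 5 glutamatergic genes stood at 438 CPM (395 to 484) and 407 CPM (366 to 450), with overlapping intervals. At 10 or more they stood at 422 and 231 CPM. The 30 further astrocyte genes went from 809 CPM in nuclei with a score under 0 to 2534 CPM at 10 or more in sham, and from 805 to 3014 CPM in stroke. The part of the glutamatergic signal in the genes lower in stroke was not tested. As a second view, values are also given for the 210 sham and 318 stroke nuclei that passed for both astrocyte lists, a choice made after seeing the data, in which glutamatergic genes stood at 270 and 215 CPM. They are a subset that holds 2590772 of the gated sham and 3286199 of the gated stroke fragments, so their values are no independent check.

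**Figure D2:**
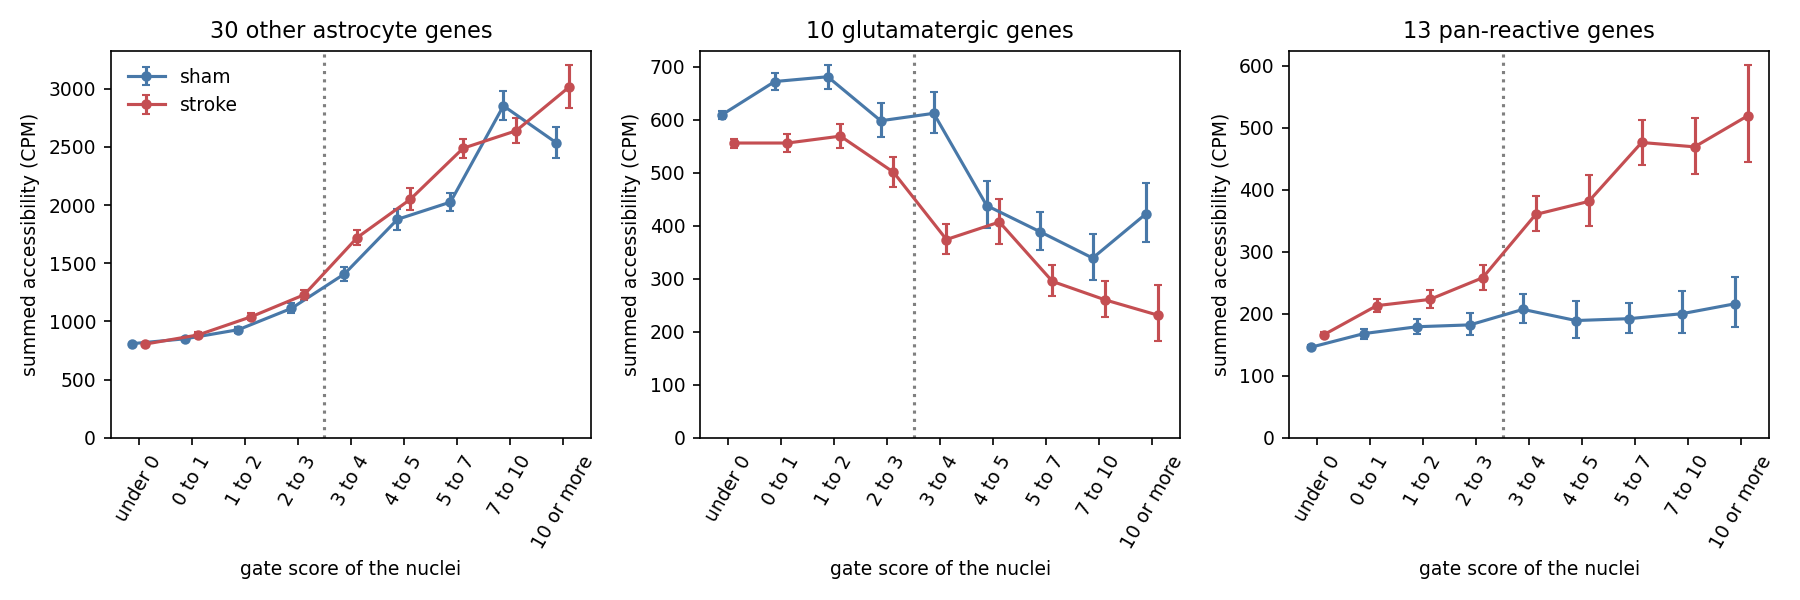
Summed accessibility (CPM) of 3 gene lists in nuclei grouped by gate score, for all kept sham and stroke nuclei, with 95% counting intervals and a dotted line at the threshold of 3. Astrocyte genes are higher at high scores in both libraries, glutamatergic genes are lower in stroke just above the threshold (374 against 612), and pan-reactive genes go from 166 to 519 in stroke while sham stays between 146 and 216.

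Between gated sham and gated stroke nuclei, 15873 genes held at least 50 fragments and were compared. Of these 238 (1.50%) were higher in stroke by at least 2-fold with an interval that excluded 1, 136 (0.857%) were lower by as much, and the median log2 ratio was -0.05. Libraries rather than mice are compared, so these counts describe the 2 pools. Among the 238 higher genes, 237 also leaned to stroke in the nuclei passing both astrocyte lists and 176 were still at least 2-fold higher in that subset. The second list, which helps to pick that subset, holds Gfap and Chrdl1, themselves among the 238. Part of this agreement is therefore built in. The windows of 71 of the 238 overlapped another gene, whose fragments cannot be told apart.

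Bcl3, which encodes an atypical IkB protein that acts in the nucleus with NF-kB p50 and p52, had the clearest gain (chr7:19808462-19822770, mm10). It held 28 fragments in 26 of 400 sham nuclei and 406 fragments in 221 of 487 stroke nuclei. Its level was 5.67 CPM in sham and 76.3 CPM in stroke, 13.5-fold higher (9.18 to 20.5), and 14.1-fold higher in nuclei passing both astrocyte lists. In the other nuclei it went from 10.9 to 22.4 CPM, so gated sham nuclei stood below, and gated stroke nuclei above, the nuclei outside the gate. None of the other 14 NF-kB genes compared reached 2-fold: the nearest were Relb (35.4 and 55.6 CPM, 1.57-fold) and Rel (21.9 and 33.1 CPM, 1.51-fold), and Tnfaip3, which encodes the feedback inhibitor A20, was the lowest (27.3 and 20.1 CPM, 0.736-fold). With 1.50% of all genes compared past 2-fold, few would be met among any 14. The median log2 ratio of the NF-kB list was 0.03. Intervals lay above 1 for 5 of its 15 genes and below 1 for 1, against 2058 and 2902 of all 15873.

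Pan-reactive astrocyte genes, those known to respond to more than one kind of injury, stood well apart from the median of all genes. Of 13 listed genes 11 had enough fragments, 6 were at least 2-fold higher in stroke (against 1.50% of all genes compared), none was lower by as much, and the median log2 ratio was 1.30 against 0.17 for the same genes in the other nuclei. Gfap, the intermediate filament protein that defines reactive astrocytes, had 226 fragments in 124 sham nuclei and 618 in 278 stroke nuclei (chr11:102887336-102900912), 45.7 and 116 CPM, 2.54-fold higher (2.18 to 2.97). Serpina3n, a secreted protease inhibitor, held 20 fragments in sham and 117 in stroke, 5.43-fold higher (3.36 to 9.22), at chr12:104406729-104414329. Vim, encoding vimentin, held 53 and 252, 4.42-fold higher (3.27 to 6.06), at chr2:13573927-13582826. Osmr, the receptor subunit for oncostatin M, held 64 and 212, 3.08-fold higher (2.32 to 4.14). The others past 2-fold were Hspb1, a small heat shock protein (3.10-fold), and Cp, the copper carrier ceruloplasmin (2.47-fold). Cd44, the hyaluronan receptor, stood at 40.3 and 75.6 CPM (1.88-fold). Lcn2, the iron-siderophore binding lipocalin, stood at 6.48 and 5.83 CPM and Timp1, a metalloproteinase inhibitor, at 6.68 and 6.58 CPM, with intervals that included 1. In the nuclei passing both astrocyte lists Lcn2 held 2 and 25 fragments (9.85-fold, 2.46 to 85.8). In the nuclei outside the gate Vim went from 4.98 to 11.1 CPM and Osmr from 9.54 to 17.8 CPM. Serpina3n went there from 5.62 to 9.75 CPM and Cp from 7.58 to 13.2 CPM. Gfap (21.1 and 23.8 CPM) and Hspb1 (3.11 and 3.16 CPM) changed little there. The windows of Cp, and of Tgm1, Ptx3, Clcf1, Gbp2, Irf7 and Fgf2 named below, each overlapped another gene. Serpina3n, Orm2 and Mt2 have close copies nearby, and how reads shared between copies were assigned is not given in the sources used here.

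Among genes listed in the literature for reactive astrocytes after ischaemia (A2), 7 of 11 compared were at least 2-fold higher (against 1.50% of all genes) and the median log2 ratio was 1.37, against 0.28 in the other nuclei. They were Slc10a6, a transporter of sulfated steroids (4.25 and 19.0 CPM), Tm4sf1, a tetraspanin-like membrane protein (3.64 and 15 CPM), B3gnt5, a glycosyltransferase of lactosylceramide (2.23 and 7.33 CPM), Tgm1, a transglutaminase (7.89 and 24.4 CPM), Clcf1, a cytokine of the CNTF family (10.1 and 30.8 CPM), Ptx3, a pentraxin (4.65 and 12 CPM) and Cd109, a membrane-anchored TGF-beta co-receptor (14.8 and 37.2 CPM). Sphk1, which makes sphingosine 1-phosphate, was lowest at 20.6 and 15.6 CPM with an interval that included 1. The list for the inflammatory (A1) type held 2 of 11 genes past 2-fold, Gbp2, an interferon-induced GTPase (2.79-fold), and Ggta1, which makes the alpha-gal sugar (24.1 and 60.2 CPM), with a median log2 ratio of 0.63 against 0.34 in the other nuclei. In the other nuclei Gbp2 went from 2.04 to 4.69 CPM and Ggta1 from 14.1 to 27.2 CPM. Of the A2 genes, Slc10a6 went there from 5.28 to 9.23 CPM, B3gnt5 from 2.35 to 3.85 and Cd109 from 17.9 to 24.1. Smaller rises there were those of Tm4sf1 (4.03 to 5.15 CPM), Tgm1 (7.22 to 8.86), Clcf1 (10.5 to 12.6) and Ptx3 (3.37 to 4.11). Differences between these lists were not tested.

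Of the cytoskeletal genes, 5 of 13 were at least 2-fold higher (against 1.50% of all genes), with a median log2 ratio of 0.67 against 0.29 in the other nuclei. Beside Gfap and Vim these were Tagln2, an actin binding protein (18 and 104 fragments, 5.37-fold, in a window that overlaps Igsf9), S100a11, a calcium binding protein (2.87-fold), and Msn, encoding moesin (2.39-fold). Nes, encoding nestin, stood at 16.2 and 17.1 CPM and Actn1, an alpha-actinin, was lowest at 96.3 and 82.5 CPM. In the other nuclei Msn went from 7.22 to 14.8 CPM, Tagln2 from 4.95 to 8.56 and S100a11 from 3.89 to 4.84. In the complement and interferon list 3 of 12 were at least 2-fold higher (1.50% of all genes), with a median log2 ratio of 0.65 against 0.34 in the other nuclei. Cxcl1, a neutrophil chemokine, stood at 2.63 and 8.27 CPM (3.14-fold), C4b, complement component C4, at 11.1 and 25.2 CPM (2.26-fold) and Irf7, an interferon regulatory factor, at 4.65 and 10.3 CPM (2.22-fold). Complement C3 stood at 10.3 and 14.8 CPM, with an interval from 0.999 to 2.09, and Cfb, complement factor B, was lowest at 7.08 and 4.51 CPM.

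Each list of signalling and transcription factor genes described next, like those for metal handling and glucose metabolism, held 1 gene at least 2-fold higher in stroke, where 1.50% of all genes were. Intervals lay above 1 for 7 of 16 genes of the JAK-STAT and gp130 list, 5 of 14 of the AP-1 and C/EBP list and 7 of 14 of the metal and redox list, against 2058 of all 15873 genes compared. In the JAK-STAT and gp130 list the gene past 2-fold was Osmr. Socs3, the feedback inhibitor of this pathway, stood at 31.0 and 59.6 CPM (1.92-fold, 1.58 to 2.35), Stat3 at 85.2 and 98.1 CPM, and Ptpn11, a phosphatase, was lowest at 73.3 and 60.9 CPM. In the AP-1 and C/EBP list it was Cebpd, at 20.4 and 46.4 CPM (2.27-fold), and its window overlaps that of Spidr, a DNA repair scaffold gene that went from 192 to 649 fragments (3.14-fold). Junb stood at 66.2 and 109 CPM (1.65-fold, 1.44 to 1.90), Fosl2 at 35.8 and 58.8 CPM (1.64-fold, 1.36 to 1.99), Jun at 88.4 and 87.4 CPM and Fos at 39.9 and 42.7 CPM. Of 13 growth factor genes Fgf2, a mitogen for astrocytes, passed, at 18.0 and 54.7 CPM (3.04-fold, 2.39 to 3.90). Slc39a14, a zinc and iron importer, was the single gene of 14 in the metal and redox list to pass (58.5 and 117 CPM, 2.01-fold), with Mt2, a metallothionein, just short of it (26.1 and 51.7 CPM, 1.98-fold). Hk2, the inducible hexokinase, was the single gene of 17 for glucose metabolism (21 and 51.1 CPM, 2.43-fold), where the median log2 ratio was -0.03. In the other nuclei Cebpd went from 6.23 to 13.3 CPM, Spidr from 25.7 to 50.6 and Socs3 from 15.1 to 24.2. Fgf2 went there from 13.3 to 19.6 CPM, Mt2 from 6.54 to 10.5 and Hk2 from 20.3 to 31.0. Slc39a14 went there from 52.2 to 61.2 CPM, Junb from 59.7 to 64.0 and Fosl2 from 42.9 to 38.8.

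Beyond the lists, the genes with the largest interval-bounded gains included A2m, the protease-trapping alpha-2-macroglobulin, with 27 fragments in 21 sham nuclei and 146 in 96 stroke nuclei (5.02-fold, 3.31 to 7.88, chr6:121635376-121679227). Fam187a, a gene next to Gfap whose window overlaps Ccdc103, held 29 and 176 fragments (5.64-fold). Sgms2, a sphingomyelin synthase, held 75 and 268 (3.32-fold), Sucnr1, the succinate receptor, 8 and 46 (5.34-fold), Fcgr3, an Fc receptor for IgG, 28 and 113 (3.75-fold), and Orm2, an acute-phase plasma protein, 17 and 75 (4.10-fold). Mrgprf, an orphan receptor, held 24 and 106 fragments (4.10-fold) and the predicted gene BC107364 held 8 and 56 (6.50-fold). In the other nuclei A2m went from 3.48 to 6.16 CPM, Fam187a from 6.45 to 8.13 and Sgms2 from 19.4 to 23.8. Sucnr1 went there from 1.03 to 1.88 CPM, Fcgr3 from 5.13 to 9.10 and Orm2 from 1.77 to 2.81. Mrgprf went there from 5.56 to 8.58 CPM and BC107364 from 4.76 to 5.36.

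Lists for everyday astrocyte function, for matrix and scar and for the cell cycle had medians close to that of all genes. None of the 11 genes compared for glutamate and GABA handling, the 15 for potassium, water and gap junctions, the 14 for cholesterol, the 18 of the Notch and progenitor list, the 17 for matrix and scar, or the 14 for the cell cycle differed by 2-fold in either direction, and their median log2 ratios lay between -0.09 and 0.22. Since 1.50% of all genes were higher and 0.857% lower by as much, few such genes would be met in any lists of this size. In the order given, intervals lay above 1 for 1, 4, 2, 3, 7 and 6 genes. They lay below 1 for 3, 1, 2, 3, 5 and 0. Of all 15873 genes compared, 2058 lay above 1 and 2902 below. Some members of these lists chose the nuclei: Slc1a2 and Slc1a3 in the first, Aqp4, Gja1 and Gjb6 in the second and Sox9 in the Notch and progenitor list. Glul, glutamine synthetase, stood at 71.6 and 63.3 CPM and Kcnj10, the potassium channel Kir4.1, at 137 and 135 CPM. Slc6a11, the GABA transporter GAT-3, stood at 190 and 157 CPM (0.825-fold, 0.751 to 0.907). Of the cell cycle genes Aurkb, a mitotic kinase, was highest at 7.49 and 13.2 CPM (1.76-fold) and Pcna lowest at 35.4 and 29.5 CPM. Housekeeping genes, 14 in all, had a median log2 ratio of 0.09 and a range from -0.33 to 0.24.

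Within these lists some single genes leaned one way beyond counting error. Hes5, the Notch target that keeps neural progenitors undifferentiated, had the lowest ratio of its list, with 230 fragments in 138 sham nuclei and 129 in 99 stroke nuclei, 46.5 and 24.2 CPM (0.521-fold, 0.417 to 0.649, chr4:154960923-154962371), and 0.362-fold (0.279 to 0.467) in nuclei passing both astrocyte lists, in a window that overlaps Pank4, while the other nuclei went from 11 to 8.93 CPM. Heyl stood at 53.4 and 35.3 CPM (0.661-fold), whereas Hes1 stood at 55.7 and 56.2 CPM. Apoe, the brain's main lipid carrier, stood at 40.7 and 30.8 CPM (0.758-fold, 0.613 to 0.936), and at 7.76 and 10.3 CPM in the other nuclei, the lowest ratio of the 30 further astrocyte genes, and Bcan, encoding brevican, at 96.7 and 70.9 CPM (0.733-fold), the lowest of the matrix list. Chrdl1, an astrocyte-secreted synapse maturation factor, stood at 9.92 and 22.7 CPM (2.29-fold) and was with Gfap one of the 2 among those 30 to pass 2-fold.

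Regional identity genes were examined because the tissue sampled was not the same in the 2 libraries. The 9 telencephalic genes had a median log2 ratio of 0.15 and the 10 compared genes of other brain regions 0.06. None of either list differed by 2-fold, where 1.50% of all genes were higher and 0.857% lower by as much. Lists of this size therefore cannot show that the regional make-up was alike. Intervals lay above 1 for 3 telencephalic genes and 1 of the others, and below 1 for 1 and 2. Of all 15873 genes compared, 2058 lay above 1 and 2902 below. Pax6, a forebrain patterning factor, stood at 56.3 and 76.7 CPM, and Agt, angiotensinogen, which marks astrocytes outside the telencephalon, at 51.4 and 37.6 CPM (0.731-fold, 0.605 to 0.884). Lef1, a Wnt effector, was the highest of the telencephalic list at 25.3 and 39.1 CPM, and Emx1 the lowest at 26.7 and 19.7 CPM.

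**Figure D3:**
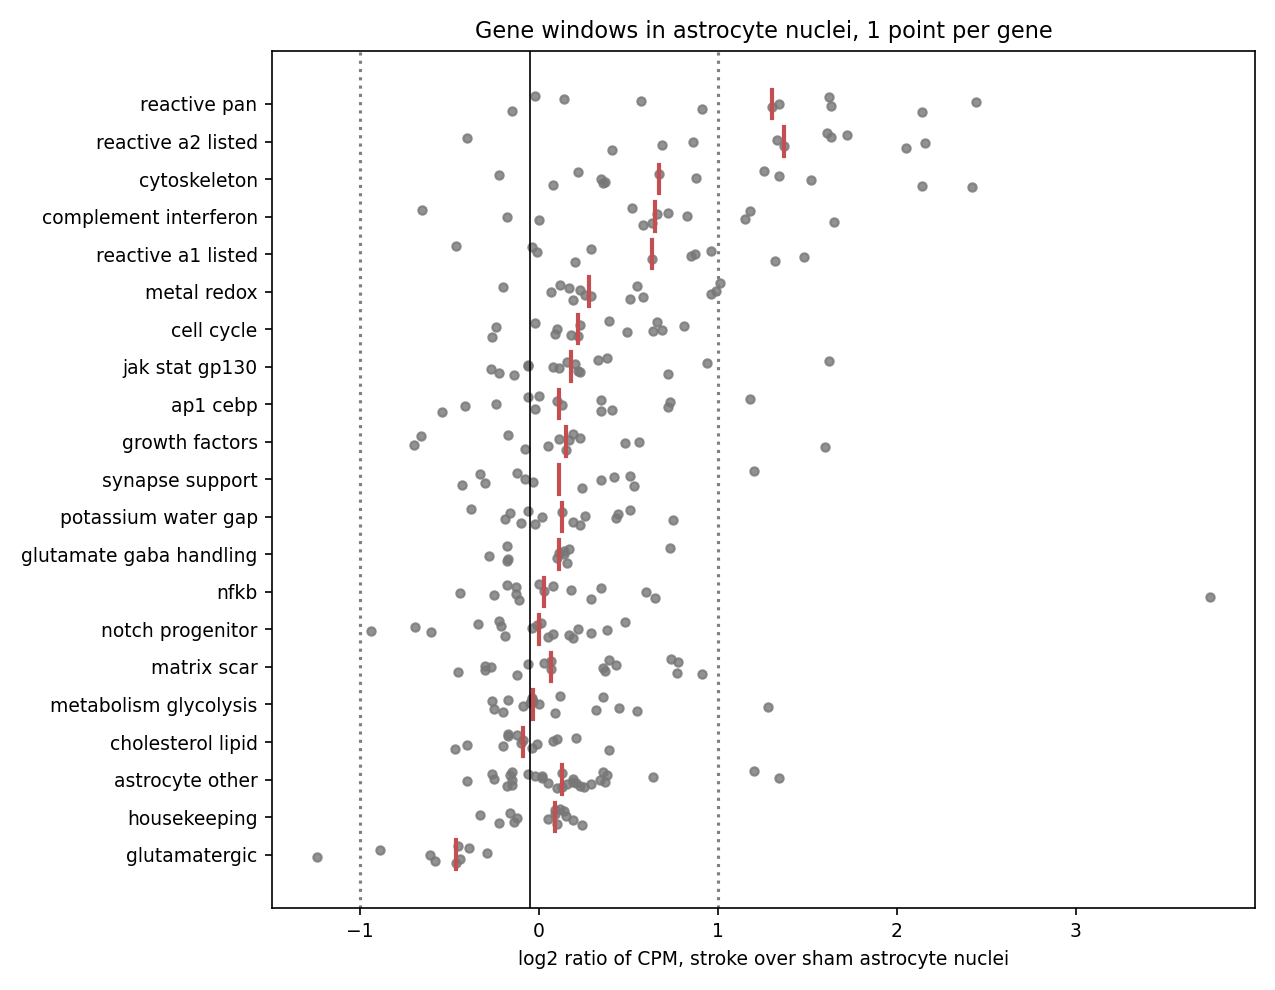
Log2 ratio of CPM, stroke over sham gated astrocyte nuclei, with 1 point per compared gene, a red bar at each list's median, a solid line at the median of all genes (-0.05) and dotted lines at 2-fold. Pan-reactive genes (median 1.30) and A2-listed genes (1.37) lie to the right, Bcl3 stands alone at 3.75 in the NF-kB list, and glutamatergic genes lie to the left (-0.46).

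Of the 136 lower genes, 127 kept their direction in the subset passing both astrocyte lists, and 71 were at least 2-fold lower there. Counted anew with each nucleus once per gene, 20 genes were lower by as much, and with a gate score of at least 2, 66 were, and how many of these are among the 136 was not counted. The windows of 49 of the 136 overlapped another gene, whose fragments cannot be told apart. Of the 15 ranked lowest, Kcnh3, a potassium channel of forebrain neurons, held 180 and 61 fragments (0.315-fold). Its window overlaps Mcrs1, and it stood at 46.5 and 35.1 CPM in the other nuclei. Cacna1b, the N-type calcium channel, held 816 and 389 (0.443-fold) with 219 and 183 CPM in the other nuclei. Slc17a7, the vesicular glutamate transporter VGLUT1, was the 1 glutamatergic gene of 9 compared to pass, with 221 and 101 fragments (0.424-fold) and 55.2 and 42.7 CPM in the other nuclei. Of all genes compared 0.857% were lower by as much. Of the 9 glutamatergic genes, 8 had intervals below 1, against 18.3% of all genes compared. None of the 9 GABAergic genes compared passed. Ankrd53, an ankyrin repeat gene, had the lowest ratio, with 42 fragments in 20 sham nuclei and 8 in 8 stroke nuclei (0.177-fold, 0.0717 to 0.381). In 8 of the 136, over 1 in 3 sham fragments came from 1 nucleus: Pnliprp1, a pancreatic lipase relative, held 48 and 11 fragments, 23 of the 48 in 1 nucleus, and Myh2, a muscle myosin, 60 and 20, 24 of the 60 in 1 nucleus.

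The pan-reactive fragments were spread over many nuclei. Gated sham nuclei held a mean of 2.47 fragments over the 13 pan-reactive windows (SD 2.52 over 400 nuclei, median 2) and gated stroke nuclei 4.62 (SD 3.72 over 487 nuclei, median 4). No fragment was found in 72 sham nuclei (18.0%) and 43 stroke nuclei (8.83%). The expected count of a nucleus was taken from its depth and the pooled rate of the gated nuclei of both libraries. More fragments than expected were found in 87 sham (21.8%) and 293 stroke (60.2%) gated nuclei. The thresholds of the gate were also applied to the pan-reactive genes, with this expected count from gated nuclei. They were passed by 8 gated sham nuclei (2.00%, 0.867 to 3.90) and 49 gated stroke nuclei (10.1%, 7.54 to 13.1). Outside the gate 0.721% and 1.44% of nuclei passed. This class is a range of a per-nucleus count and not a type, and 6 sham and 42 stroke nuclei lay near its edge. After every nucleus was thinned to 3000 fragments, 42.9% of 387 sham and 67.4% of 473 stroke gated nuclei held at least 1 pan-reactive fragment, against 33.4% and 38.0% of the other nuclei. Housekeeping windows held a fragment in 80.4% and 82.5% of the same thinned gated nuclei.

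**Figure D4:**
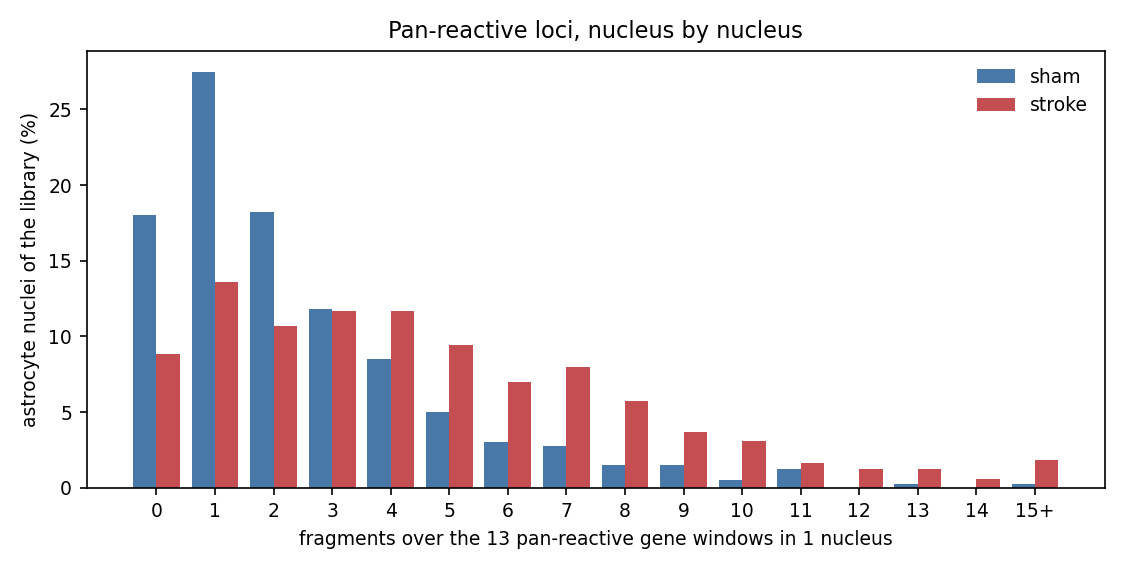
Share of gated astrocyte nuclei (%) by the number of fragments they hold over the 13 pan-reactive gene windows, for 400 sham and 487 stroke nuclei. The sham median is 2 and the stroke median 4, with 18.0% and 8.83% of nuclei at 0.

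Gated stroke nuclei were then divided at their expected pan-reactive count, as a description, into 293 above and 194 below. Bcl3, which is not in that list, stood at 95.6 CPM (84.8 to 107) above and 51.4 CPM (42.5 to 61.5) below, so it was over 5.67 CPM, the sham level, on both sides. A2m stood at 35.6 and 16.8 CPM, Fgf2 at 70.9 and 33.7 CPM, and the summed A2 list at 254 and 161 CPM. Other features of the nuclei moved with the division, and their part in the difference was not tested. The further astrocyte genes, with Gfap left out, summed to 2484 and 1612 CPM and glutamatergic genes to 254 and 428 CPM. Housekeeping genes summed to 610 and 523 CPM. Hes5 stood at 23.6 and 25 CPM on the 2 sides, with overlapping intervals.

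At the level of single regions, 54758 regions of 500 bp were called on the gated nuclei of both libraries together, and 30169 held at least 30 fragments. Of these 3186 (10.6%) were at least 2-fold higher in stroke and 1073 (3.56%) were lower by as much. These counts use the ratio alone, so they can hold regions whose interval includes 1. The gain reached past 2-fold with its whole interval for 743 regions, whereas 37 regions were lower with the whole interval below 0.5-fold. Promoters, within 1 kb of a gene start, were 32.9% of the compared regions but 6.53% of the higher and 11.3% of the lower ones. Higher regions had a median of 2.02 CPM in sham and 6.39 CPM in stroke, and 0.937 and 1.43 CPM in the other nuclei. Lower regions went from a median of 5.46 to 2.07 CPM while the other nuclei stood at 5.38 and 3.85 CPM, and 332 of the 1073 (30.9%, against 38.7% of all compared) were at least 2-fold above the other nuclei in sham.

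The region with the clearest gain lies between genes at chr13:53663001-53663500, 190176 bp from the start of Msx2, a homeobox gene. It held 0 fragments in sham and 52 in stroke, at least 16.1-fold higher with 3 counts taken as the floor for sham (lower end of the exact interval, which also covers the stroke count, 12.6-fold), and 11 and 45 in the far more numerous other nuclei. Another, at chr17:66750501-66751000 in an intron of Ptprm, a receptor phosphatase of cell contacts, held 0 and 44 (at least 13.6-fold, lower end 10.6-fold), and one at chr5:34535001-34535500 in an intron of Sh3bp2, a signalling adaptor, held 0 and 47 (at least 14.6-fold, lower end 11.4-fold). Inside Bcl3, in an intron at chr7:19816001-19816500, counts were 4 and 79 (18.3-fold, 6.89 to 69.0). Of the 15 regions ranked highest, 11 held no sham fragment and none is a promoter. Grouped by nearest gene start and named, beside Bcl3, for having the most higher regions, all 4 compared regions of Bcl3, 6 of 7 of Socs3, 5 of 5 of Nmnat2, which makes NAD in axons, and 5 of 9 of Irs2, an insulin receptor substrate, were at least 2-fold higher. Chosen this way, their shares are a description and are not to be read against the 10.6% of all compared regions. Of the 15 ranked lowest, 13 were at most 1.21-fold above the other nuclei in sham, such as the region at chr2:129360001-129360500, 10889 bp from the start of Il1b, with 28 and 2 fragments in gated and 503 and 237 in other nuclei. The exceptions were chr2:134961501-134962000 in an intron of Plcb1, a phospholipase C, with 57 and 10 fragments (0.163-fold, 0.0742 to 0.322) against 46 and 22 in other nuclei, and chr9:94743001-94743500 in an intron of Slc9a9, an endosomal sodium-proton exchanger, with 62 and 16 (0.240-fold, 0.129 to 0.420) against 32 and 18.

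AP-1 letters were more frequent in the higher regions than in all compared ones. Over 1 kb from any gene start, TGANTCA was present in 14.4% of 20251 compared windows, in 39.0% of 2978 higher windows (37.2 to 40.7) and in 60.3% of the 717 whose interval lay above 2-fold (56.6 to 63.9). It was present in 10.7% of 952 lower windows, and in 8.30% of 5010 windows that were at least 4-fold above other nuclei in both libraries and did not differ by 2-fold between them. STAT letters, TTCNNNGAA, were present in 9.94% of compared windows, 17.0% of higher windows and 21.5% of those with an interval above 2-fold. C/EBP letters, TTGCNNAA, gave 12.8%, 15% and 19.0% in the same order, and NF-kB letters, GGANTTTCC, 1.49%, 2.08% and 3.07%. Letters of other families also gave higher shares: the glucocorticoid response element 1.10%, 1.81% and 2.37%, TEAD, GGAATG, 17.6%, 24.0% and 24.4%, and ROR/RXR, AGGTCA, 15.3%, 18.3% and 20.6%. SOX letters, ACAATGG, gave 3.85%, 5.20% and 5.16%. Median GC content was 53.0% in compared and 51.0% in higher windows. Letters were read with no regard to bound factors, and a match is not a binding site.

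Read the other way, 39.6% of the 2926 distal windows with AP-1 letters were higher in stroke, with a median log2 ratio of 0.70, against 0.21 for the same windows in other nuclei. Windows with STAT letters were higher in 25.1% of 2013 cases (median 0.31). Those with both were higher in 52.5% of 339 cases (median 1.09, and 0.37 in other nuclei), and those with neither in 9.52% of 15651 cases (median 0.05). The NFI half-site TTGGCA was present in 28.4% of compared windows and in 40.2% of the windows at least 4-fold above other nuclei in both libraries without a 2-fold difference. It was present in 31.9% (30.2 to 33.6) of the windows higher in stroke and in 29.8% of those with an interval above 2-fold. Of the latter, 525 were at least 4-fold above other nuclei in stroke, and 31.4% (27.5 to 35.6) of these held it. The letters CAGATG, read by neuronal bHLH factors, were present in 34.9% of lower windows against 22.4% of compared windows, and EGR letters, GCGTGGG, in 7.56% against 3.94%. In the 252 lower windows that were at least 4-fold above other nuclei in sham, these shares were 21.8% (16.9 to 27.4) and 1.59% (0.434 to 4.01).

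**Figure D5:**
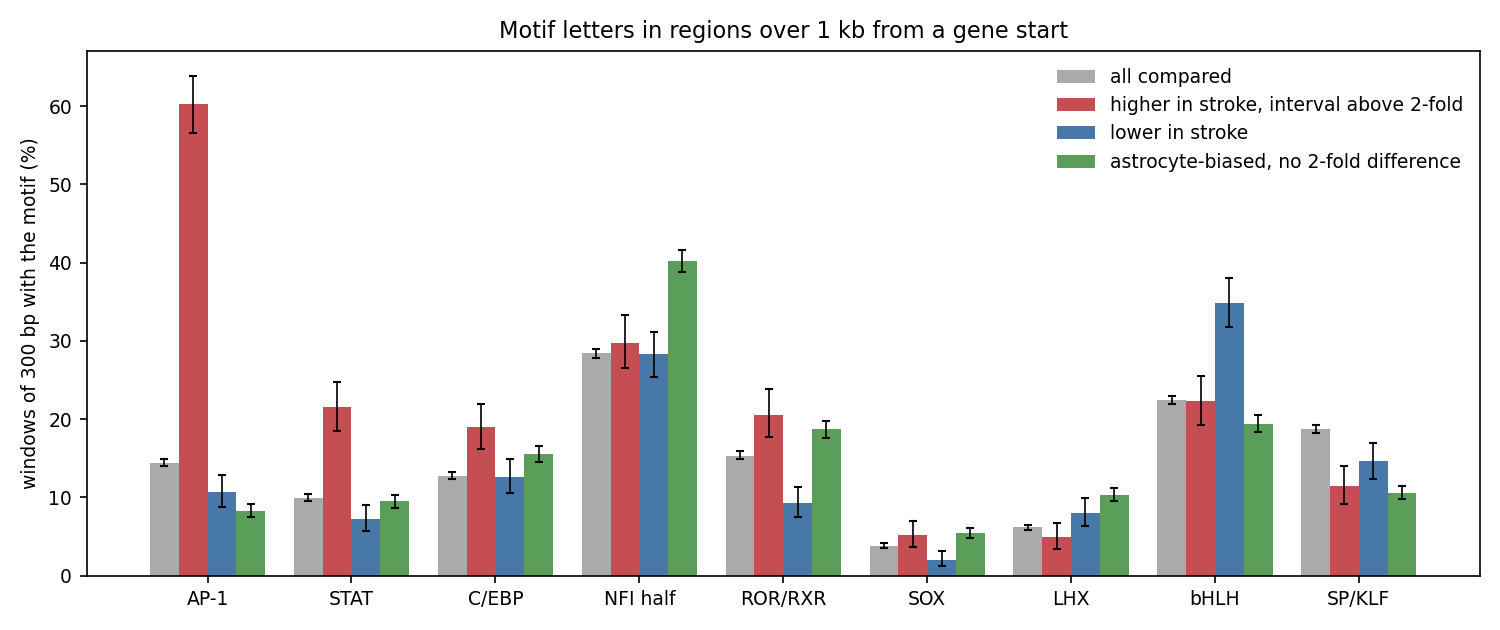
Share of 300 bp windows (%) that hold the letters of each motif, in regions over 1 kb from a gene start, with 95% binomial intervals, for all compared regions, those higher in stroke with an interval above 2-fold, those lower in stroke, and astrocyte-biased regions without a 2-fold difference. AP-1 letters stand at 60.3% in the higher regions against 14.4% of all compared, and NFI half-sites at 40.2% in the astrocyte-biased regions.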

How the data were processed

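The deposited files held, per the labels, 1 fragment list and 1 per-barcode table for each of 2 libraries, which the authors made with Cell Ranger ATAC 2.1.0 on mm10. The per-barcode columns are whole-number counts, and so is the read support in the deposited fragment lists, which was not used as a weight. A fragment was counted once in each gene window that it overlapped. For regions it was counted once in each 500 bp bin that held 1 of its 2 cut sites. The deposited lists held 76959104 sham and 96465679 stroke fragments, of which 72212678 and 51574646 lay in kept nuclei. No columns of other samples were present (0 unmatched), and 34 kept barcodes occurred in both libraries. Doublets were not called or removed here. Gene windows came from GENCODE vM21.

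Fragments were summed over gated nuclei, divided by all fragments of the set and compared by exact conditional (binomial) 95% intervals of the ratio. Genes needed 50 and regions 30 fragments in both sets together. Regions were 500 bp local maxima called on both libraries against their surrounding 10 kb. A difference was counted at a ratio of 2-fold or more. The interval was not part of this rule, and at the region minimum it can include 1. A sham count of 0 was replaced by a floor of 3. Genes and regions were named from the gate markers, the highest and lowest member of each list, and the 15 genes and regions with the highest and lowest interval bound. Other genes named from the lists were chosen after their values were seen. Thinning used seed 1. Calculations ran in Python 3.11.15 with numpy 2.4.6, scipy 1.17.1, pandas 2.3.3 and matplotlib 3.10.9, and the steps were tested on simulated data. The gate, its members and all gene lists were chosen with earlier results of these data known. Alternatives changed the gate, its markers, depth, gene windows, minimum counts and scaling.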

Additional observations from a re-analysis of the deposited data

Results flagged for a closer look

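For 13 of 420 named or listed genes examined (3.10%), the gated astrocyte nuclei stood on opposite sides of the other nuclei in the 2 libraries, with counting intervals of gated over other nuclei that excluded 1 in both. Over all 15873 compared genes this held for 161 (1.01%). Of the 13, 7 had been named for being among the 15 highest or lowest ratios of stroke over sham, a choice made on the same values. With 1 library per condition the difference between libraries was not tested. Fragments in peaks differed between gated and other nuclei by more in stroke (47.5% against 33.0%) than in sham (45.9% against 38.9%). The part of that gap in ratios close to 1 was not tested. Below the other nuclei in sham and above them in stroke were Bcl3 (0.520 and 3.41 times the other nuclei), Sgms2 (0.781 and 2.12), Fosl2 (0.835 and 1.52), Fkbp5, a glucocorticoid-induced chaperone (0.819 and 1.30), Lmna, encoding lamin A (0.822 and 1.13), Pfkp, a phosphofructokinase (0.821 and 1.12), BC107364 (0.340 and 1.96) and Folr1, a folate receptor on the choroid plexus list (0.454 and 1.47).

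Above the other nuclei in sham and below them in stroke were Ankrd53 (1.94 and 0.316), Ctf2, a cardiotrophin-related gene whose window overlaps Ctf1 (1.61 and 0.419), Magix, a PDZ domain gene (1.64 and 0.570), Pnliprp1 (1.67 and 0.405) and Csf3r, the granulocyte colony stimulating factor receptor (1.40 and 0.690). For Pnliprp1, 23 of its 48 sham fragments came from 1 nucleus.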

How the results depend on the processing

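Of 85 values recomputed under other settings, 39 moved by less than their counting error or 1.5 times and 46 by more, and the pan-reactive median log2 ratio kept its sign under all 15 of its settings. The gated share of 6.72% in sham and 11.1% in stroke became 9.62% and 15.3% with a score of at least 2, 4.54% and 7.67% with at least 4, 3.06% and 5.71% with the even-numbered markers alone, 7.48% and 9.70% with each library's own marker rate, 4.59% and 8.29% without nuclei that passed for another class, 3.02% and 5.43% after thinning to 3000 fragments, and 9.09% in stroke with the odd-numbered markers. Passing both astrocyte lists, added after seeing the data, left 3.53% and 7.26%. Stroke was above sham under each of these. The gap was not seen over all called barcodes, also added after seeing the data: without the nucleus filters 6.29% of sham and 6.37% of stroke barcodes passed the gate, with intervals that overlap, and the kept gated nuclei were 5.73% and 5.57% of called barcodes. The filters removed 1030 sham and 4360 stroke barcodes, of which 3686 in stroke and 162 in sham had at most 20% of their fragments in peaks.

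The 238 higher genes became 104 after thinning, 463 with a minimum of 20 fragments and 48 with 200. The 136 lower genes became 66 with a score of at least 2, 212 with at least 7 (added after seeing the data), 258 with a minimum of 20, 21 with 200, and 20 when each nucleus counted once per gene, a setting that moved the median log2 ratio of all genes from -0.05 to 0.09. The pan-reactive median log2 ratio of 1.30 became 1.07 (score 2), 1.49 (score 4), 0.96 (even-numbered markers), 1.18 (other-class nuclei out), 0.99 (thinned, with 2 genes left), 1.02 (score 7), 1.48 (both lists), 1.16 (minimum 20), 1.13 (minimum 200), 1.17 (once per nucleus) and 1.75 (promoters alone). The second astrocyte list holds Gfap, itself a pan-reactive gene. The reactive share of 2.00% and 10.1% became 0% and 4.76% after thinning (0 of 175 sham nuclei, which allows a share of up to 1.71% by a floor of 3 counts and 2.09% by the exact 95% interval), and 0.476% and 7.23% in nuclei passing both lists. The 3186 higher regions became 748 with a minimum of 60 fragments, 1990 without other-class nuclei and 1951 with both lists, and the 1073 lower regions 144 and 591 under the first 2 of these. Counting minimum and number of nuclei set part of these counts by construction, and the cause of the other shifts was not tested.

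No paired analysis was possible because there was 1 library in each condition, which also meant that no library was left out. The pooled brains, the different tissue sampled, nuclei of other types within the gate and about 10370 fragments per nucleus limit the reading of any single locus.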
